A study of Rattus norvegicus with 16 samples.

Results

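The genes described here are 58 genes of striated muscle other than the myosins: troponins, actins and their companions on the thin filament, proteins of the thick filament, the M band and the Z disc, the calcium release machinery, muscle energy enzymes, and the regulators Myod1 and Myog. They were chosen by symbol from known muscle genes with the difference between the diet groups at postnatal day (PND) 21 already in view, so the PND21 values below are a description and support nothing by themselves. The table of PND21 holds 54 of the 58 among 28688 entries, and the table of PND540 holds all 58 among 24218. Lmod2, Ttn, Tcap and Atp2a1 were not analysed here at PND21.

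The study sequenced RNA of ventral prostates from rats (Rattus norvegicus) whose dams received a low protein diet with 6% protein in gestation and lactation (GLLP) or a normal diet with 17% protein (CTR). At PND21 there were 3 GLLP libraries, numbered 2 to 4, and 4 CTR libraries. At PND540 there were 4 GLLP libraries and 5 CTR libraries. No strain, genotype or litter is given in the labels, so the spread between libraries may include animals of 1 dam. Each p-value rests only on the spread within diet groups of its own age, over 7 libraries at PND21 or 9 at PND540.

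Skeletal muscle fibres contract when calcium released from the sarcoplasmic reticulum binds troponin C and frees actin for the myosin heads. Fast and slow fibres build this machine from different genes for the same part, so that each troponin subunit has a fast and a slow form. The prostate is a gland of secretory epithelium in a smooth muscle stroma, and smooth muscle has no troponin-based sarcomere. Striated muscle lies next to the gland in the pelvis, around the urethra. In these bulk libraries, fewer cells of a type and less RNA per cell cannot be told apart.

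Totals were 30529776 to 39161666 counts per library at PND21 and 28748604 to 37587255 at PND540. A pair of libraries stood apart from the rest. CTR replicate 1 at PND21 had 0.304% of its counts in mitochondrial genes, against 3.70% to 5.05% in the other PND21 libraries. CTR replicate 5 at PND540 had a median correlation of 0.861 with the other libraries of its age, against at least 0.967 for each of the others. Prostate epithelial markers summed to 24650 to 33326 CPM (counts scaled to library size with TMM factors) in GLLP glands and to 39077 to 48742 CPM in CTR glands at PND21, so prostate markers were read in every library of that age, and 0 of 9 were called different there. At PND540 the same markers summed to 12592 to 61043 CPM in GLLP glands and 14123 to 66538 CPM in CTR glands.

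The start regions of 6 of the genes are shown because they carry the short motifs that muscle regulators are known to bind, and because the 6 genes differ in their values: Ckm, Tnni2 and Klhl41 were near 0 in CTR glands, Acta1 was read at 303 CPM or more in every library of PND21, Myog is itself a regulator, and Casq2 had the 1 negative fold change, which was not called and whose groups overlapped. Each run is the 250 bases before the annotated start in RefSeq's GRCr8 assembly, matched by symbol, 5′ to 3′ along the gene's strand. That assembly is not the build named for the counts. Capitals mark CAGCTG in Ckm, CTANNNNTAG and CAGCTG in Klhl41, the CArG box, CAGCTG and TATAAA in Acta1, and CANNTG in Myog and Casq2. In Tnni2 they mark CANNTG and TTTATA, which is TATAAA on the opposite strand. Other matches are in lower case.
Ckm, chr1:88189211-88189460, plus strand: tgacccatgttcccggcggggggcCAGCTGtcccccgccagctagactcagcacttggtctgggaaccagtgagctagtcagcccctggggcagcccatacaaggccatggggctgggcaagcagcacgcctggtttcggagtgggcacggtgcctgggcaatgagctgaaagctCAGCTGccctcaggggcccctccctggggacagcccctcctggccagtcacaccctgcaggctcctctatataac
Tnni2, chr1:207024240-207024489, plus strand: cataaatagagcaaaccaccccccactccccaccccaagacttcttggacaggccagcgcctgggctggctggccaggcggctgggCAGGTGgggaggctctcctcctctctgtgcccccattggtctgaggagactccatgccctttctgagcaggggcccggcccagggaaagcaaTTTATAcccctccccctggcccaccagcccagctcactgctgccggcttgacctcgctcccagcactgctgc
Klhl41, chr3:74841868-74842117, plus strand: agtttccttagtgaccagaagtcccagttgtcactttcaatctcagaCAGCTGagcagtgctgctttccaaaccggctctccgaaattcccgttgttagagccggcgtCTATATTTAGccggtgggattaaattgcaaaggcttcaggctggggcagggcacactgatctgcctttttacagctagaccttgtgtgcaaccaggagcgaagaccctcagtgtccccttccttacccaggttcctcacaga
Acta1, chr19:68784195-68784444, minus strand: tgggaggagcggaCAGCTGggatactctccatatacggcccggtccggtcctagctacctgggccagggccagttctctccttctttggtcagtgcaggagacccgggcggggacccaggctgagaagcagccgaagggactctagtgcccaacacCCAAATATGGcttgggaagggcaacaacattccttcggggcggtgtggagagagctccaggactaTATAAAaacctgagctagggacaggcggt
Myog, chr13:48297226-48297475, plus strand: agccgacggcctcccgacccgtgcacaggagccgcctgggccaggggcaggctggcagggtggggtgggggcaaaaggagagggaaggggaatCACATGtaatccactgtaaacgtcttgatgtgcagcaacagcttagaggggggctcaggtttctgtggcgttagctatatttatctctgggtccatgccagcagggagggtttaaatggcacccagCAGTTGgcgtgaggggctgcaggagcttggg
Casq2, chr2:192214306-192214555, plus strand: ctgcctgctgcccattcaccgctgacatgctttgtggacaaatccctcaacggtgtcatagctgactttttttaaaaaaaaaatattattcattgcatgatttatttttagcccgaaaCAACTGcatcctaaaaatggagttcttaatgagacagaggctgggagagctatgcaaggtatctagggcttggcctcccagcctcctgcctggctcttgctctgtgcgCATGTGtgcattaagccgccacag

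The E box, CANNTG, is the core bound by Myod1 and Myog, and CAGCTG is 1 version of it, so matches to the second are also matches to the first. CTANNNNTAG is the core of the site of MEF2 factors, and the CArG box is that of serum response factor. RefSeq start regions of 300 bases, 250 before and 50 from the start, were found for 47 of the 58 genes (50 regions). CANNTG lay in 90% of these regions and in 72.1% of all 33469 regions of that length. The corresponding shares were 50% and 15.1% for CAGCTG, 20% and 3.84% for CTANNNNTAG, 6% and 1.64% for the CArG box, and 20% and 14.2% for TATAAA, with both strands searched. In Ckm, the 2 CAGCTG runs began at positions -226 and -75 from the start. The CArG box of Acta1 began at position -94 and its TATAAA run at -29. A match is a run of letters and not a bound site.

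At PND21, 51 of the 58 genes had enough counts to be tested, and 50 of the 51 had a positive fitted fold change in GLLP over CTR glands. Their median log2 fold change was 3.07, against -0.0038 over all tested genes. Each of the 3 GLLP libraries was above each of the 4 CTR libraries for 45 of the 51, where 9.49% of all 14915 tested genes had that pattern, and none of the 51 had every GLLP library below every CTR library, a pattern of 7.6% of all genes. With edgeR, 40 of the 51 were called higher and none lower at an adjusted p under 0.05. Over all genes 1.11% were called, 1.01% as higher in GLLP glands, and 19.3% had an unadjusted p under 0.05, as did 49 of the 51. Since this contrast was in view when the genes were chosen, nothing is read from these shares. The same holds for the calls given by role below, which have the same background. Without CTR replicate 1 the calls were 28 of the 51, among 62 genes called in all, and without CTR replicate 2, 3 or 4 they were 29, among 63 to 75 genes. Without GLLP replicate 2 they were 42 higher and 1 lower, among 1509 genes, and without GLLP replicate 3 they were 32, among 62 genes.

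The 7 genes that were not tested at PND21 were the 4 that the table did not hold, Myot, which had 0 counts in every library, and Cox7a1 and Myod1. The 54 genes of the table together summed to 1063 to 1192 CPM in the GLLP libraries and 462 to 529 CPM in the CTR libraries, a ratio of mean sums of 2.33. Acta1 made up most of the CTR sum. Without Acta1 the sums were 508 to 717 CPM in GLLP libraries and 144 to 159 CPM in CTR libraries, and the groups did not overlap.

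**Figure D1:**
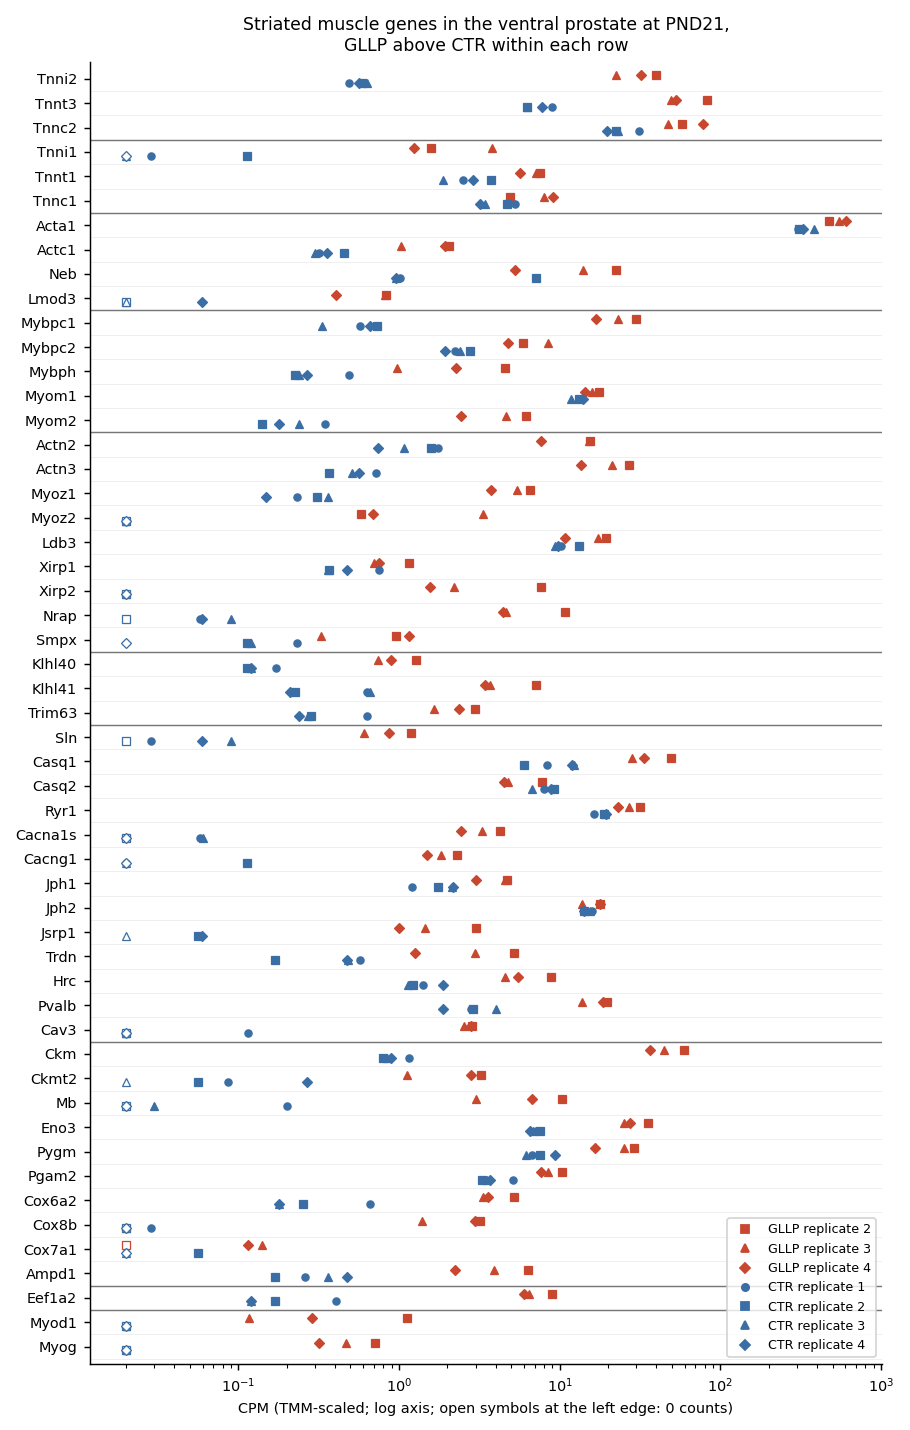
Each row is 1 gene and each point 1 library at PND21, in CPM scaled with TMM factors on a log axis, with GLLP and CTR in separate colours and rows grouped by role; open symbols at the left edge are libraries with 0 counts. Most rows show the 3 GLLP points to the right of the 4 CTR points, while Tnnc1, Neb, Ldb3, Xirp1, Casq2 and Jph2 overlap.

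The fast troponins of the thin filament were higher in every GLLP gland. Tnni2, the inhibitory subunit of fast fibres, had 39.8, 22.3 and 32.0 CPM in GLLP replicates 2, 3 and 4, against 0.491, 0.594, 0.631 and 0.567 CPM in CTR replicates 1 to 4. Its mean was 54.9 times the CTR mean, which was under 1 CPM. Tnnt3, the tropomyosin-binding subunit of fast fibres, had 82.6, 49.3 and 52.8 CPM in GLLP glands and 9.00, 6.28, 6.28 and 7.79 CPM in CTR glands, a ratio of means of 8.39. Tnnc2, the calcium-binding subunit of fast fibres, had 57.4, 47.5 and 77.6 CPM in GLLP glands, against 31.4, 22.6, 23.0 and 19.9 CPM in CTR glands. The ratio for Tnnc2 was 2.51, so that the 3 subunits of 1 complex differed in their fold while all 3 kept the groups apart.

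The slow troponins were less uniform. Tnni1, the slow inhibitory subunit, had 1.58, 3.78 and 1.24 CPM in GLLP replicates 2, 3 and 4, and 0.0289, 0.113, 0 and 0 CPM in CTR replicates 1 to 4. GLLP replicate 3 held the highest Tnni1 level, although Tnni2 was lowest in that library. Tnnt1, the slow tropomyosin-binding subunit, had 7.53, 7.18 and 5.68 CPM in GLLP glands, against 2.51, 3.73, 1.89 and 2.90 CPM in CTR glands. Tnnc1, the calcium-binding subunit shared by slow and cardiac muscle, had 4.89, 8.04 and 9.13 CPM in GLLP glands and 5.31, 4.72, 3.46 and 3.19 CPM in CTR glands. The lowest GLLP library for Tnnc1 lay below the highest CTR library, so the groups overlapped. Of the 6 troponin genes, 5 were called higher, and Tnnc1 was not.

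Acta1 encodes the skeletal muscle actin of the thin filament. It had 475, 547 and 607 CPM in GLLP replicates 2, 3 and 4, against 303, 309, 385 and 328 CPM in CTR replicates 1 to 4. The groups did not overlap, and the ratio of means was 1.64, with the largest absolute difference of all 54 genes at 212 CPM. Actins share nearly identical coding sequences, so reads of the smooth muscle actin Acta2 may be counted here and the Acta1 values are uncertain; Acta2 averaged 959 ± 243 CPM in GLLP glands and 884 ± 55.3 CPM in CTR glands (SD, n = 3 and 4). Actc1, the cardiac actin that developing skeletal muscle also uses, averaged 1.67 ± 0.563 CPM in GLLP glands and 0.357 ± 0.0680 CPM in CTR glands, with the same uncertainty over reads.

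Neb encodes nebulin, the giant protein that runs along the thin filament. Its levels were 22.5, 14.1 and 5.24 CPM in GLLP replicates 2, 3 and 4, and 1.01, 7.18, 0.962 and 0.955 CPM in CTR replicates 1 to 4. CTR replicate 2 was above GLLP replicate 4, so the groups overlapped through that 1 CTR library, and Neb was not called. Without CTR replicate 2, Neb had a log2 fold change of 3.84 and was called. Lmod3, a leiomodin, which starts and lengthens thin filaments, averaged 0.685 ± 0.244 CPM in GLLP glands, against 2 counts in CTR replicate 4 and 0 counts in the other CTR libraries.

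Genes of the thick filament and M band were higher in all 3 GLLP glands for each of the 5 genes with values. Mybpc1, the slow-type myosin binding protein C, which fast fibres also contain, had 29.8, 23.0 and 16.9 CPM in GLLP replicates 2, 3 and 4, and 0.577, 0.735, 0.331 and 0.657 CPM in CTR replicates 1 to 4. Mybpc2, the fast-type form, had 5.95, 8.42 and 4.75 CPM in GLLP glands and 2.25, 2.77, 2.40 and 1.94 CPM in CTR glands. The ratio of means was 40.5 for Mybpc1 and 2.72 for Mybpc2, and Mybpc1 lay under 1 CPM in CTR glands while Mybpc2 did not. Myom1, a cross-linker of the M band, had 17.7, 15.9 and 14.4 CPM in GLLP glands and 13.5, 13.2, 11.8 and 14.0 CPM in CTR glands. Although the Myom1 libraries did not overlap, the gap between the lowest GLLP and the highest CTR library was small, and Myom1 was the 1 gene of the 5 that was not called. Its relative Myom2 averaged 4.41 ± 1.86 CPM in GLLP glands and 0.227 ± 0.0895 CPM in CTR glands, and Mybph, a smaller relative of myosin binding protein C, 2.62 ± 1.83 CPM in GLLP glands and 0.306 ± 0.124 CPM in CTR glands.

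At the Z disc, where thin filaments are anchored, the 2 alpha-actinins of striated muscle were both higher in GLLP glands. Actn3, the form of fast fibres, had 27.1, 21.3 and 13.7 CPM in GLLP replicates 2, 3 and 4, against 0.721, 0.368, 0.511 and 0.567 CPM in CTR replicates 1 to 4. Actn2, the form of all fibres, had 15.4, 15.2 and 7.66 CPM in GLLP glands and 1.76, 1.58, 1.08 and 0.746 CPM in CTR glands. For both genes every GLLP library was above every CTR library, with ratios of means of 38.2 for Actn3 and 9.88 for Actn2. Myoz1, a calsarcin of fast fibres that ties calcineurin to the Z disc, had 6.56, 5.43 and 3.75 CPM in GLLP glands and 0.231, 0.311, 0.361 and 0.149 CPM in CTR glands. Myoz2, the calsarcin of slow and cardiac muscle, had 0.579, 3.33 and 0.692 CPM in GLLP glands and 0 counts in each CTR library, and GLLP replicate 3 again held the highest slow form. Against a floor of 3 counts per CTR library, the Myoz2 mean was at least 17.5-fold higher, but the gene was not called.

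Ldb3, a PDZ and LIM protein that binds alpha-actinin, had 19.4, 17.2 and 10.8 CPM in GLLP glands and 10.3, 13.2, 9.31 and 9.76 CPM in CTR glands. GLLP replicate 4 lay among the CTR libraries, and Ldb3 was not called. The intercalated disc and tendon junction gene Xirp2 had 7.69, 2.19 and 1.56 CPM in GLLP glands and 0 counts in every CTR gland, at least 43.4-fold higher against the same floor. Nrap, a scaffold of growing myofibrils, averaged 6.63 ± 3.59 CPM in GLLP glands and 0.0519 ± 0.0376 CPM in CTR glands. Xirp1 averaged 0.869 ± 0.252 CPM in GLLP glands and 0.489 ± 0.182 CPM in CTR glands, and the groups overlapped. Smpx, a small cytoskeletal protein of striated muscle, averaged 0.815 ± 0.433 CPM in GLLP glands and 0.116 ± 0.0943 CPM in CTR glands, and was not called although its libraries did not overlap. Of the 9 Z disc and attachment genes tested, 5 were called higher. All 3 genes of sarcomere protein turnover were called higher: the Kelch proteins Klhl40 and Klhl41, which stabilise thin filament proteins, and the ubiquitin ligase Trim63. Klhl41 averaged 4.74 ± 2.05 CPM in GLLP glands and 0.433 ± 0.249 CPM in CTR glands, Klhl40 0.975 ± 0.279 CPM in GLLP glands and 0.131 ± 0.0280 CPM in CTR glands, and Trim63 2.33 ± 0.653 CPM in GLLP glands and 0.357 ± 0.186 CPM in CTR glands.

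Calcium handling held the 1 gene of the 51 with a negative fold change, Casq2. Casq1, the calsequestrin that stores calcium in fast fibres, had 49.4, 28.1 and 33.5 CPM in GLLP replicates 2, 3 and 4, against 8.37, 6.00, 12.3 and 11.9 CPM in CTR replicates 1 to 4. Casq2, the form of cardiac and slow muscle, had 7.75, 4.76 and 4.50 CPM in GLLP glands and 8.05, 9.25, 6.70 and 8.84 CPM in CTR glands. The log2 fold change of Casq2 was -0.54 ± 0.22 (SE), and its groups overlapped because GLLP replicate 2 lay above CTR replicate 3. Without GLLP replicate 2, Casq2 was called lower, with a log2 fold change of -0.83 and an edgeR adjusted p of 0.0298. That fit called 714 of all 15147 tested genes lower, against 16 of 14915 with every library kept, so nothing particular to Casq2 is read from it.

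The release channel Ryr1 had 31.6, 26.9 and 23.0 CPM in GLLP glands and 16.4, 18.8, 19.1 and 19.3 CPM in CTR glands, a ratio of means of 1.47 with no overlap, but was not called. Jph2, a junctophilin that holds the surface membrane to the reticulum, had 17.8, 13.8 and 17.8 CPM in GLLP glands and 15.9, 14.1, 15.4 and 14.2 CPM in CTR glands, and the groups overlapped. In contrast to both, the voltage sensor that opens Ryr1 in skeletal muscle was close to 0 in CTR glands: Cacna1s had 4.25, 3.29 and 2.45 CPM in GLLP glands, against 0 to 2 counts in each CTR library. Its partner subunit Cacng1 averaged 1.89 ± 0.410 CPM in GLLP glands, with 4 counts in CTR replicate 2 and 0 in the other 3 CTR libraries. Pvalb, a soluble calcium buffer of fast fibres, had 19.8, 13.8 and 18.7 CPM in GLLP glands and 2.80, 2.91, 4.03 and 1.88 CPM in CTR glands, a ratio of 6.01.

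Cav3, the caveolin of muscle membranes, averaged 2.74 ± 0.175 CPM in GLLP glands, and 3 of the 4 CTR libraries held 0 counts. The triad proteins Trdn and Jsrp1, the calcium-binding protein Hrc and the pump inhibitor Sln were also called higher, each with no overlap. Hrc averaged 6.28 ± 2.24 CPM in GLLP glands and 1.41 ± 0.332 CPM in CTR glands, and Trdn 3.16 ± 1.99 CPM in GLLP glands and 0.426 ± 0.177 CPM in CTR glands. The junctophilin Jph1 averaged 4.09 ± 0.924 CPM in GLLP glands and 1.82 ± 0.448 CPM in CTR glands, with no overlap and no call. In all, 9 of the 13 calcium handling genes tested were called higher, and Casq2, Ryr1, Jph1 and Jph2 were not.

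All 9 energy genes tested were called higher, where 1.01% of all tested genes were. In all 9, every GLLP library lay above every CTR library, a pattern of 9.49% of all tested genes. Ckm, the creatine kinase of the muscle cytosol, had 59.4, 44.8 and 36.8 CPM in GLLP replicates 2, 3 and 4, against 1.15, 0.792, 0.841 and 0.896 CPM in CTR replicates 1 to 4, a ratio of means of 51.0. Eno3, the muscle enolase, had 35.6, 25.3 and 27.5 CPM in GLLP glands and 7.10, 7.58, 6.85 and 6.51 CPM in CTR glands. Pygm, the muscle glycogen phosphorylase, had 29.2, 25.2 and 16.5 CPM in GLLP glands and 6.69, 7.55, 6.22 and 9.40 CPM in CTR glands. Together with Pgam2, the muscle phosphoglycerate mutase, which averaged 8.83 ± 1.35 CPM in GLLP glands and 3.92 ± 0.832 CPM in CTR glands, these glycolytic genes had higher CTR levels and smaller ratios, from 2.26 for Pgam2 to 4.20 for Eno3.

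Mb, the oxygen store myoglobin, had 10.4, 3.01 and 6.74 CPM in GLLP glands and 0.202, 0, 0.0300 and 0 CPM in CTR glands. Cox8b and Cox6a2, muscle subunits of cytochrome oxidase, averaged 2.53 ± 0.981 and 4.05 ± 0.988 CPM in GLLP glands, against 1 Cox8b count over all 4 CTR libraries and a Cox6a2 mean of 0.319 ± 0.232 CPM in CTR glands. The related subunit Cox7a1 had at most 6 counts in any PND21 library of either group. Ckmt2, the mitochondrial creatine kinase, averaged 2.39 ± 1.12 CPM in GLLP glands and 0.103 ± 0.116 CPM in CTR glands, and Ampd1, the muscle AMP deaminase, 4.18 ± 2.07 CPM in GLLP glands and 0.317 ± 0.133 CPM in CTR glands. Eef1a2, the translation elongation factor of muscle and neurons, averaged 7.13 ± 1.58 CPM in GLLP glands and 0.203 ± 0.136 CPM in CTR glands.

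The myogenic regulators were read in GLLP libraries only, and from few counts. Myod1, which commits cells to the muscle lineage, had 1.13, 0.117 and 0.288 CPM in GLLP replicates 2, 3 and 4, from 35, 5 and 10 counts, and 0 counts in every CTR library. Myog, which drives the differentiation of myoblasts, had 0.708, 0.466 and 0.317 CPM in GLLP glands, from 22, 20 and 11 counts, and 0 counts in every CTR library. Against a floor of 3 counts per CTR library, the means were at least 5.81-fold higher for Myod1 and at least 5.66-fold higher for Myog. Myog was called, and Myod1 did not pass the filter on low counts. Without CTR replicate 1, 2, 3 or 4, or without GLLP replicate 3, Myog was not called.

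Ratios between groups were set beside the CTR read level, in CPM not divided by transcript length. The 34 genes with a CTR mean under 1 CPM had a median ratio of means of 21.6 over the 26 of them whose ratio could be given. The 14 genes with a CTR mean of 1 to 10 CPM had a median ratio of 3.50, and the 6 genes at 10 CPM or more, which were Tnnc2, Acta1, Myom1, Ldb3, Ryr1 and Jph2, had 1.48. The difference in CPM did not follow the same order, with medians of 2.42, 8.17 and 6.95 CPM in the 3 classes. A low CTR level enters the ratio as its denominator, so the order of the ratios is a description only.

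**Figure D2:**
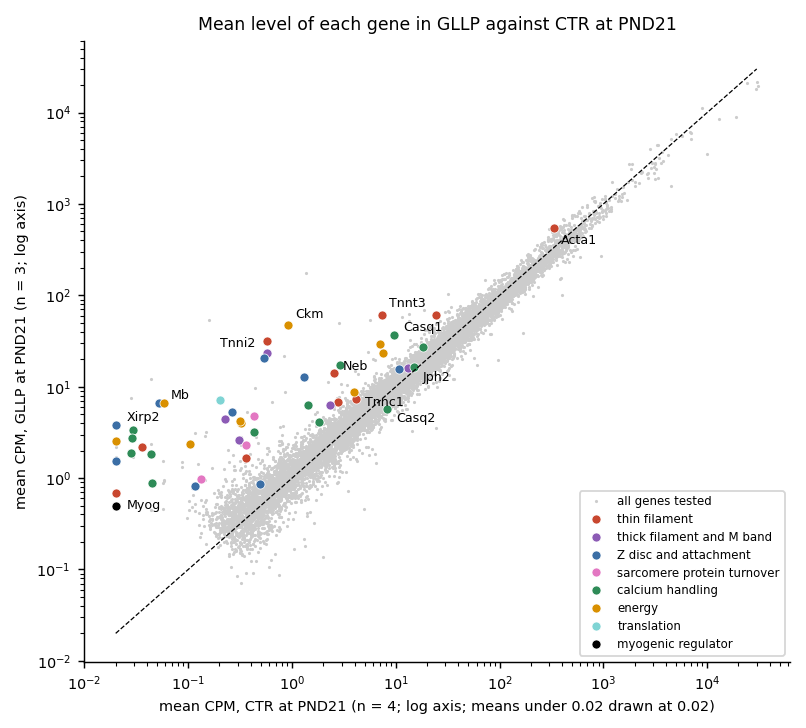
Each point is 1 gene at PND21, with its mean CPM in CTR glands on the x axis and in GLLP glands on the y axis, both on log axes with TMM scaling, over all tested genes in grey; CTR means under 0.02 CPM are drawn at 0.02. Genes with a CTR mean under 1 CPM lie farthest above the line of equal levels in most cases, the 6 genes at 10 CPM or more lie nearer to it, and Casq2 lies below it.

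Fast and slow forms of the same part were compared as the share of the slow form in the reads of both. Such a share depends on the lengths of both transcripts, which were not used here, so it is compared between libraries and never read as a share of molecules. Intervals are 95% Wilson intervals, and they cover counting error only. The share of Tnnt1 in Tnnt1 plus Tnnt3 was 8.35% (7.39 to 9.44%), 12.7% (11.4 to 14.1%) and 9.70% (8.49 to 11.1%) in GLLP replicates 2, 3 and 4. It was 21.8% (18.0 to 26.1%), 37.3% (32.4 to 42.4%), 23.2% (18.5 to 28.5%) and 27.1% (22.8 to 31.9%) in CTR replicates 1 to 4. Each GLLP library thus held a lower share of the slow form than each CTR library.

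The share of Casq2 in both calsequestrins was 13.6% (12.1 to 15.2%), 14.5% (12.7 to 16.4%) and 11.8% (10.2 to 13.7%) in the GLLP libraries and ran from 35.3% (31.7 to 39.1%) to 60.7% (56.5 to 64.7%) in the CTR libraries. Actn2, set against the fast Actn3, made up 35.9% to 41.8% in GLLP libraries and 56.8% to 81.2% in CTR libraries. These pairs did not overlap between groups either. Mybpc1 in Mybpc1 plus Mybpc2 went the other way, at 73.2% to 83.4% in GLLP libraries and 12.1% to 25.3% in CTR libraries. For Tnnc1 in Tnnc1 plus Tnnc2 the groups overlapped, with 7.85% to 14.5% in GLLP libraries and 13.1% to 17.3% in CTR libraries.

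Among the 3 GLLP libraries, replicate 3 had the highest share of the slow form for troponin I, T and C and for calsarcin, and the lowest share of Mybpc1. For Tnni1 in Tnni1 plus Tnni2 the shares were 3.81% (2.89 to 5.00%), 14.5% (12.5 to 16.6%) and 3.73% (2.78 to 4.99%) in GLLP replicates 2, 3 and 4. For Myoz2 in Myoz2 plus Myoz1 they were 8.11% (5.19 to 12.5%), 38.0% (33.3 to 43.0%) and 15.6% (10.7 to 22.1%) in the same order. In both pairs the interval of replicate 3 lay apart from those of the other two. The CTR libraries held at most 4 Tnni1 and 21 Tnni2 counts each, so their intervals were too wide to be set against these. The slow myosin Myh7 had 0.922 to 12.4 CPM in GLLP libraries, with the highest value in replicate 3, and 0.260 to 0.566 CPM in CTR libraries. Myh7 was picked with its values known, and it was not called (edgeR adjusted p 0.0729). That peak was not particular to it: Myh3, Myh8, Myl2, Myl3 and Mylk2 were also highest in GLLP replicate 3. The myosin genes Myh4, Myl1 and Mylpf were highest in GLLP replicate 2.

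**Figure D3:**
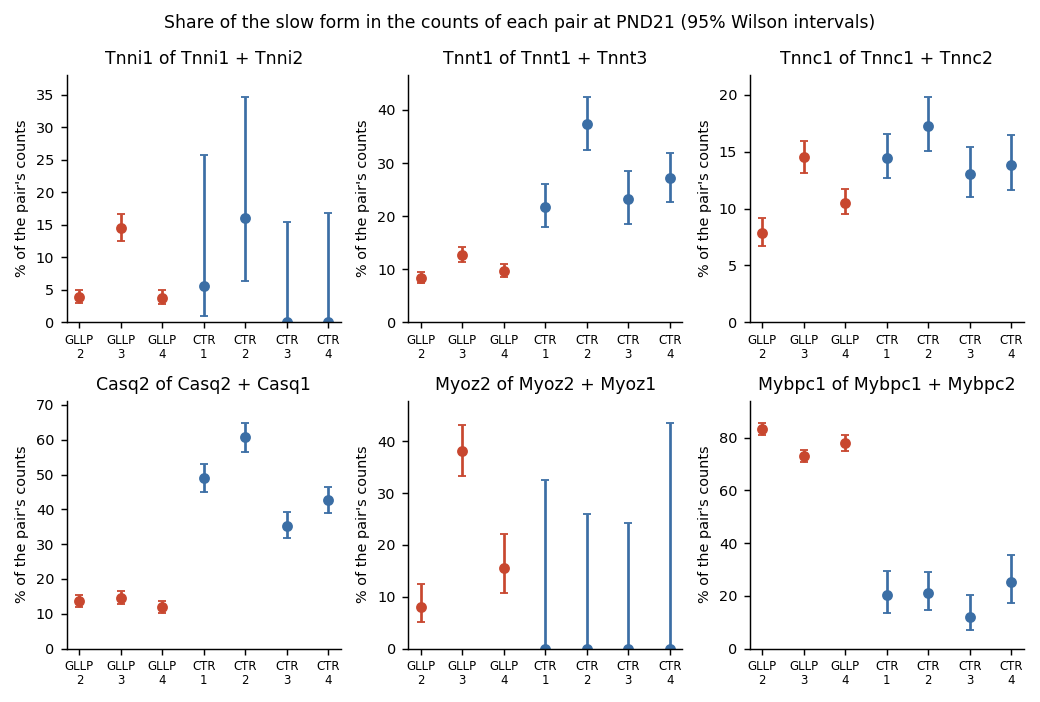
For 6 pairs of related genes at PND21, each point is the percent of the pair's counts that belong to the slow form in 1 library, with its 95% Wilson interval as a bar, in GLLP and CTR glands. The GLLP points of Tnnt1 and Casq2 lie below the CTR points, those of Mybpc1 lie above them, and 1 GLLP library stands above the other two for Tnni1 and Myoz2.

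The genes did not keep 1 common ratio between GLLP libraries. Of 45 genes with a GLLP mean of at least 1 CPM, 38 were highest in GLLP replicate 2, 3 in replicate 3 and 4 in replicate 4. To keep the level that CTR glands also had out of the ratios, 21 genes were taken whose CTR mean was under 10% of the GLLP mean. In these, 19 were highest in replicate 2 and the other 2, Tnni1 and Myoz2, in replicate 3. The median ratio of replicate 2 over replicate 3 was 1.39, with a range of 0.174 to 3.51, and that of replicate 2 over replicate 4 was 1.62, with a range of 0.837 to 4.94. Myoz2 held the lowest value of both ratios, and Xirp2 the highest.

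By role, the 6 energy genes among the 21 had a median ratio of replicate 3 over replicate 4 of 0.699, with a range of 0.400 to 1.74. The 5 Z disc and attachment genes had a median of 1.45 for the same ratio, with a range of 1.04 to 4.82, so the roles overlapped. Ckmt2 had the lowest value of that ratio, 0.400, while Tnni1 was at 3.05 and Myoz2 at 4.82. Cav3 was the most even of the 21, with 2.86, 2.54 and 2.82 CPM in replicates 2, 3 and 4.

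**Figure D4:**
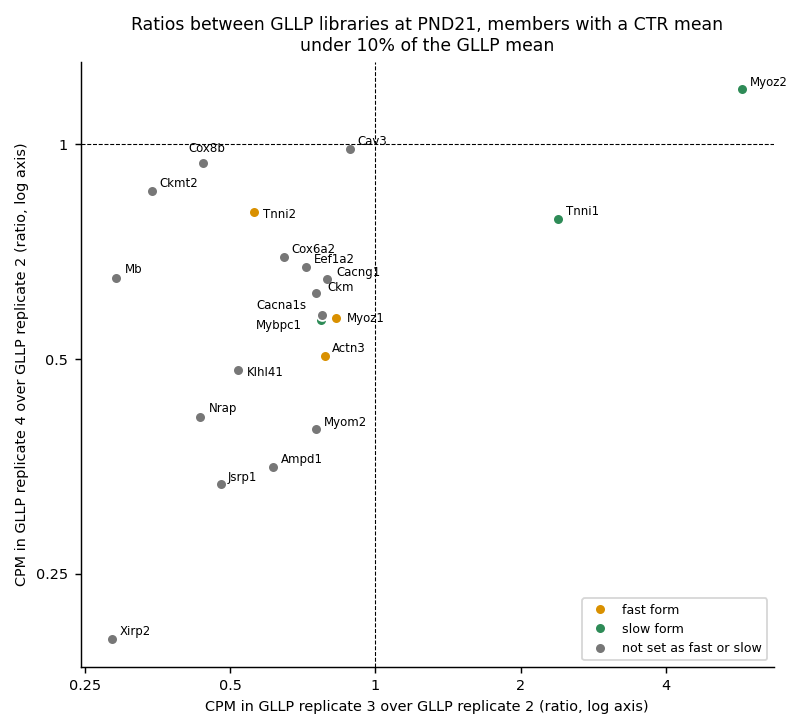
Each point is 1 of 21 genes whose CTR mean was under 10% of its GLLP mean at PND21, with the ratio of CPM in GLLP replicate 3 over replicate 2 on the x axis and of replicate 4 over replicate 2 on the y axis, both logarithmic. Tnni1 and Myoz2 stand to the right of 1 on the x axis, and the other 19 genes lie to its left.

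Other lists of muscle and tissue genes, which are no part of the 58, were read in the same PND21 fit. Of 9 skeletal myosin genes tested, 7 were called higher and none lower, and the list summed to 220 to 413 CPM in GLLP libraries and 4.57 to 7.47 CPM in CTR libraries. Of 35 other sarcomere and muscle genes tested, 10 were called higher, and of 11 genes of the dystrophin complex and membrane, 1 (Capn3). Lists of the neuromuscular junction (7 tested) and of satellite cells and myogenic regulation (7 tested) had no calls, nor had smooth muscle (11), cardiac muscle (6), brown fat (4), white fat (7), Schwann cells and nerve (8) or tendon (6). The background for such calls was 1.01% higher in GLLP glands.

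Summed levels were 36.0 to 42.3 CPM in GLLP libraries and 29.1 to 32.0 CPM in CTR libraries for the neuromuscular junction list, and 95.4 to 127 CPM in GLLP libraries and 63.8 to 89.5 CPM in CTR libraries for cardiac muscle. For smooth muscle, which the stroma of the gland holds, they overlapped, at 3479 to 3940 CPM in GLLP libraries and 3352 to 3815 CPM in CTR libraries. The tendon list summed to 16.6 to 20.4 CPM in GLLP libraries and 10.4 to 14.3 CPM in CTR libraries. Satellite cell and regulator genes summed to 83.6 to 152 CPM in GLLP libraries and 132 to 151 CPM in CTR libraries. Among them, and picked after their values were seen, Myf6, Mymk and Vgll2 had counts in each GLLP library and 0 counts in every CTR library, while the satellite cell marker Pax7 had 0 counts in every GLLP library and 2 counts in 1 CTR library. Brown fat genes, of which Elovl3 was at 0 throughout, summed to 11.5 to 14.1 CPM in GLLP libraries and 9.31 to 12.5 CPM in CTR libraries. Those of white fat summed to 34.6 to 94.5 CPM in GLLP libraries and 42.0 to 105 CPM in CTR libraries, and those of Schwann cells and nerve to 177 to 191 CPM in GLLP libraries and 178 to 205 CPM in CTR libraries. The share of striated muscle, of epithelium or of other tissue in each sample was not measured, and the part of such shares in the values of the 58 genes was not tested.

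The diet contrast at PND540 was not used to choose the genes, and it is the test of whether they also differed in old animals. None of the genes was called. Of the 58, 30 had enough counts to be tested, and 0 were called by edgeR's quasi-likelihood test or by DESeq2. Over all 14767 tested genes edgeR called 0%, in either direction or as higher, and DESeq2 called 2 genes. At an unadjusted p under 0.05 edgeR had 1 of the 30, beside 0.833% of all genes. In 0 of the 30 did the groups not overlap, where all GLLP libraries lay above all CTR libraries in 0.183% of all genes and below them in 0.21%.

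Fitted fold changes of the 30 were positive for 9 genes and negative for 21, with a median log2 value of -0.23, against a value near 0 over all genes. Without CTR replicate 5 that median was 0.0216, and without GLLP replicate 4 it was -0.46, so its sign rested on CTR replicate 5. Standard errors of the log2 fold changes ran from 0.23 to 0.89, and the estimated biological variation between libraries came to 46.2% (19.6% at PND21), so that the absence of calls does not show that levels were alike.

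Myom1 had the smallest p of the 30. It had 6.12, 8.19, 6.77 and 5.17 CPM in GLLP replicates 1 to 4 and 13.6, 7.66, 6.28, 10.8 and 23.4 CPM in CTR replicates 1 to 5, a log2 fold change of -0.91 ± 0.39 (SE) with a 95% interval of -1.67 to -0.14. The unadjusted p was 0.0416 and the edgeR adjusted p 0.914, so the difference did not pass, and the groups overlapped. CTR replicate 5 was the highest library.

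Tnnc2 had 5.71, 3.47, 3.98 and 6.10 CPM in GLLP glands and 4.26, 5.23, 6.00, 6.12 and 24.1 CPM in CTR glands, with a log2 fold change of -0.92 ± 0.54 (95% interval -1.98 to 0.13). Apart from CTR replicate 5, its 8 libraries lay between 3.47 and 6.12 CPM. Eno3 had 4.60, 4.34, 3.04 and 5.05 CPM in GLLP glands and 5.12, 4.39, 4.68, 5.66 and 10.4 CPM in CTR glands, and CTR replicate 5 was again the highest. Atp2a1, the calcium pump of fast fibres, had 0.683, 0.927, 0.917 and 0.823 CPM in GLLP glands, against 0.787, 0.755, 0.743, 2.39 and 1.37 CPM in CTR glands. Tnnt1 had 0.373, 0.329, 0.379 and 1.33 CPM in GLLP glands and 0.572, 0.503, 0.600, 1.000 and 2.44 CPM in CTR glands. For all 5 genes with the smallest p the edgeR adjusted p was 0.914, and their groups overlapped.

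CTR replicate 5 was the highest of the 9 libraries for 14 of the 30 genes, and GLLP replicate 4 and CTR replicate 4 for 6 each. The summed level of the 58 genes was 96.1 to 193 CPM in GLLP libraries and 105 to 227 CPM in CTR libraries, with the highest sum in CTR replicate 5. The part of that library's make-up in the results above was not tested. Lmod2, Myot, Myoz2, Cacng1, Myod1 and Myog had 0 counts in all 9 libraries of PND540, and the other 22 genes that were not tested stayed at or under 1.24 CPM in each library. Skeletal myosin genes, of which 3 were tested and 0 called, summed to 5.65 to 9.96 CPM in GLLP libraries and 5.76 to 13.2 CPM in CTR libraries.

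Shares of the slow forms overlapped between the groups at PND540. The share of Tnnt1 in Tnnt1 plus Tnnt3 was 20% to 24.5% in GLLP libraries and 21.6% to 34.4% in CTR libraries, and that of Casq2 in both calsequestrins was 30.1% to 66.4% in GLLP libraries and 19.9% to 76.0% in CTR libraries. Mybpc1 made up 11.3% to 23.1% of its pair in GLLP libraries and 4.44% to 44.0% in CTR libraries, from at most 20 Mybpc1 counts a library.

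**Figure D5:**
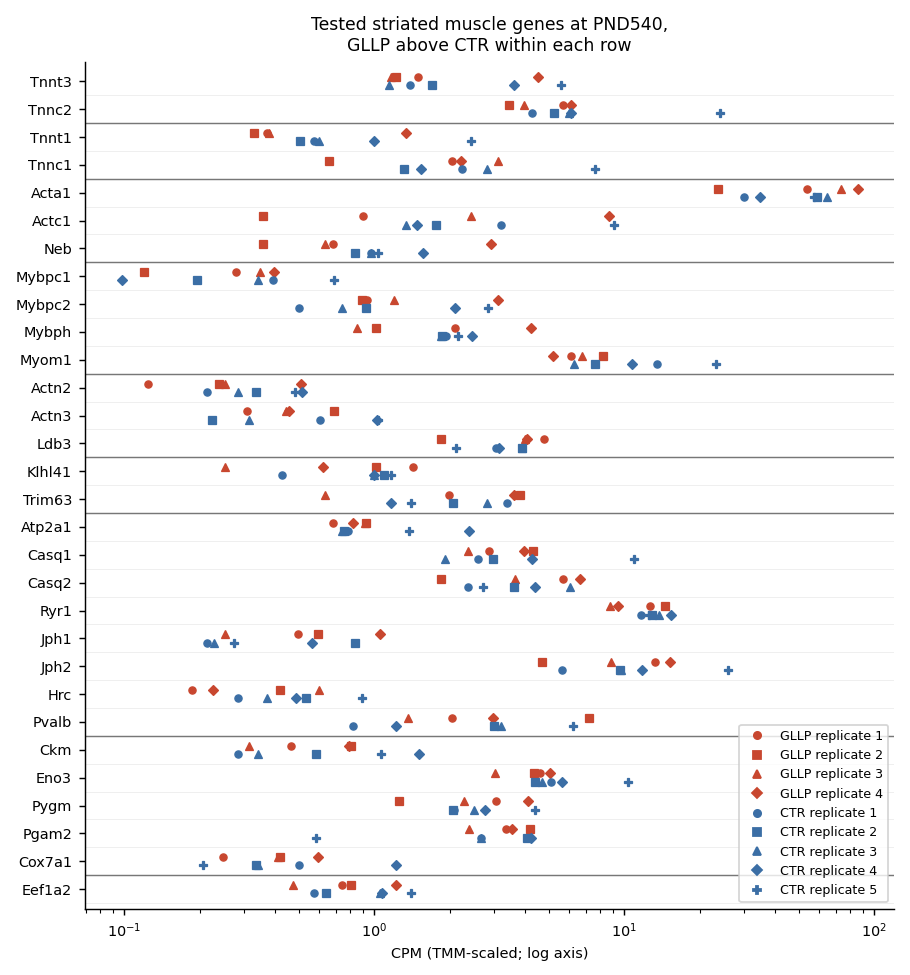
Each row is 1 of the 30 genes tested at PND540 and each point 1 library, in CPM scaled with TMM factors on a log axis, with GLLP and CTR in separate colours. The 4 GLLP and 5 CTR points overlap in every row, as in that of Acta1, where all 9 lie between 23.8 and 85.8 CPM.

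The ages have tables of their own, with 24218 entries at PND540 and 28688 at PND21, which were normalized separately, so levels are set side by side without a test. Of 52 genes named in both tables and tested at either age, every PND540 library lay below every PND21 library for 46 in GLLP glands, where 25.6% of all 14004 such genes did, and for 12 in CTR glands, where 21.9% did. The CTR share of the 52 was 23.1%, close to that of all genes. The genes were chosen with the diet difference at PND21 in view, so nothing is read from the GLLP share. Every PND540 library lay above every PND21 library for 1 of the 52 in GLLP glands, beside 19.9% of all genes, and for 5 in CTR glands, beside 16.1%. The 5 were Actc1, Mybph, Trim63, Cox7a1 and Eef1a2, and Cox7a1 was the 1 in GLLP glands.

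Ckm had 0.316 to 0.807 CPM in GLLP glands at PND540 and 36.8 to 59.4 CPM in GLLP glands at PND21. In CTR glands it had 0.286 to 1.51 CPM at PND540 and 0.792 to 1.15 CPM at PND21, so the CTR ages overlapped. Tnni2 had 0.0948 to 0.284 CPM in GLLP glands at PND540, against 22.3 to 39.8 CPM at PND21. Acta1 was below its PND21 level in both diet groups, with 23.8 to 85.8 CPM in GLLP glands and 30.1 to 64.9 CPM in CTR glands at PND540. The summed smooth muscle list was lower as well, at 687 to 1544 CPM in GLLP glands and 717 to 1388 CPM in CTR glands at PND540.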

How the data were processed

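RNA of the ventral prostate was extracted with Trizol and sequenced from standard Illumina libraries, per the labels' protocols. The authors deposited raw counts per gene in a table for each age, with no normalization. The submitters' processing notes list STAR, edgeR 3.34.0 and Rnor_6.0 and state no role for any of them. Which tool counted the reads, on which annotation and with or without strand is not given in the sources used here, so overlapping genes and near-identical relatives cannot be told apart.

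The 58 genes, their roles, the 12 other lists and the tests were chosen with earlier results of these data known. Values in every library are given for genes with a mean of at least 10 CPM in either group at PND21, for the fast and slow pairs and for the regulators, 26 in all, and at PND540 for the 5 with the smallest p. Xirp2, Mb, Cacna1s and Cav3 are also given by library and were picked after their values were seen. Of the 12 lists, counts and sums are given in place of most of their single genes.

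Each age was fitted alone with edgeR 4.0.16 in R 4.3.3: filterByExpr, TMM, robust quasi-likelihood fits with diet as the only term, and Benjamini-Hochberg adjustment over all tested genes, at a threshold of 0.05. Log2 fold changes are GLLP over CTR, and their ranges are 1.96 SE on each side. That multiplier is the normal one, so these ranges are narrower than 95% intervals of the edgeR test would be. CPM values are TMM-scaled, and ratios of means are given where CTR libraries held more than 3 counts in all. The fit was tested on simulated data. Depth of 28748604 to 39161666 counts per library puts the floor of 3 counts at 0.0699 to 0.107 CPM. Alternatives were other scalings, DESeq2 1.42.0, other filters, a non-robust fit, a replicate block and leaving out each library. Replicate pairs differed by more than counting noise (chi-square over degrees of freedom at least 31.6), so each library counted as 1 sample. The planned comparison of fast and slow forms per length was replaced by shares within a pair, since transcript lengths were not used here.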

Additional observations from a re-analysis of the deposited data

Results flagged for a closer look

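The check covered the 26 genes that the rule above set for values in every library. It took each diet group of 4 or 5 libraries in which a gene's mean was at least 1 CPM. Of these 48 groups, 10 held 1 library far from the rest of the group. The cut-off flags about 1 in 20 groups where values are independent and normally spread. That was not checked for these CPM values, so 10 of 48 is a description only. At PND21, Neb had 7.18 CPM in CTR replicate 2, against 0.955 to 1.01 CPM in the other CTR libraries.

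At PND540, 3 of the 10 were GLLP replicate 4. It had 4.51 CPM for Tnnt3 (1.17 to 1.49 in the other GLLP libraries), 2.92 CPM for Neb (0.359 to 0.683) and 3.12 CPM for Mybpc2 (0.897 to 1.20). A further 5 were CTR replicate 5, the library with the low correlation to the rest. Tnnc2 was at 24.1 CPM there (4.26 to 6.12 in the other CTR libraries), Tnnt1 at 2.44 (0.503 to 1.00), Tnnc1 at 7.66 (1.31 to 2.83), Casq1 at 10.9 (1.91 to 4.29) and Eno3 at 10.4 CPM (4.39 to 5.66). Neb had 1.56 CPM in CTR replicate 4, against 0.839 to 1.03 CPM in the other CTR libraries.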

How the results depend on the processing

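No called result changed direction at either age. At PND21 the 40 calls among the 58 genes became 14 with a replicate block, 26 of them lost, and ran from 28 to 43 with 1 library left out. Mybpc2, Xirp2 and Myog were not called without CTR replicate 1, 2, 3 or 4, or without GLLP replicate 3. Acta1, Tnnc2 and Tnnt1 were among those not called without CTR replicate 4. The 166 calls over all genes became 650 with library size alone, 972 with DESeq2 and 27 with the replicate block, and ran from 62 to 1509 with 1 library left out, the highest without GLLP replicate 2. The median log2 fold change of the genes ran from 2.80 to 3.40 with 1 library left out, and the ratio of summed CPM, 2.33, was 2.56 with library size alone, which shifted the median of all genes by 0.14 (log2). The cause was not tested. Filters moved few calls: Xirp2 was not called with no filter, and Lmod3, Klhl40, Sln and Myog were not tested with a filter at 1 CPM. Same-numbered libraries did not deviate together (correlations of -0.242, 0.191 and -0.240 at PND21 and -0.166, -0.0353, 0.0756 and 0.354 at PND540), so the replicate numbers were not taken as pairs. At PND540 the genes had 0 calls under every alternative; over all genes DESeq2 called 2, and the median log2 fold change of the tested genes, -0.23, was -0.054 with the replicate block and ran from -0.46 to 0.0216 with 1 library left out.
Values under about 0.1 CPM rest on 3 counts or fewer per library. The spread at PND540 limits what could be called, and 28 of the 58 genes had too few counts there to be tested.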
